A study of Mus musculus with 28 samples.

Results

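Zscan4c, Zscan4d, Zscan4e, Zscan4f, Zfp352, Gm5662, Gm12794, Arg2, Tdpoz3 and Pramel7 are genes that earlier work on these data grouped with the 2-cell stage of the mouse embryo. They were taken by name from the deposited tables of RNA levels, where each name has 1 entry, so they are 10 of 37583 entries. They were picked with the loss of Eed in stem cells in view, so nothing is read from that comparison, where their levels are a description with no p-value. RNA depleted of ribosomal RNA had been measured in 28 libraries, 14 from mouse embryonic stem cells (mESCs) and 14 from day 5 embryoid bodies (EBs), clusters of cells that differentiate once the cytokine LIF has been withdrawn. The title of the series joins Polycomb Repressive Complex 2, a histone methyltransferase that needs its subunit Eed, to Elongin A (EloA, gene Tceb3), a factor of RNA polymerase II elongation.

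The CJ7 line came as Eed null, as EloA K754M and K754R, each an edit of 1 lysine of Elongin A, and as the unedited wild type, with 2 mESC and 2 EB libraries per genotype. From the CCE line (CCE28 in the labels) came 3 EloA null and 3 wild type mESC libraries and 6 EB libraries in groups of 2. Of the EB groups, 1 is wild type. In the other two, titles and data columns contradict each other: pair A is EloA null by title and heterozygous by column, and pair B the reverse, so no genotype was drawn from either. All mESCs, controls included, had grown on mouse feeder fibroblasts with LIF and the inhibitors PD0325901 and CHIR99021, and were separated from the feeders by plating. The labels do not say how many clones stand behind a genotype or whether replicates are separate cultures, so the p-values measure the spread between libraries, which may be technical.

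Zscan4 genes encode nuclear proteins with a SCAN domain and zinc fingers. They are switched on when the embryonic genome first becomes active, at the 2-cell stage, and again for short periods in a small share of stem cells in culture, where Zscan4 is tied to telomere lengthening by recombination. Stem cells in that state also express other genes of the 2-cell embryo, among them Zfp352, a zinc finger gene, and members of the Tdpoz and PRAME-like (Pramel) families, and the transcription factor Dux can start this program. Zscan4c is the copy best known from stem cells and Zscan4d the one best known from the 2-cell embryo. In RNA from bulk cultures, fewer cells in that state and less RNA per cell cannot be told apart.

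The Zscan4 copies are also described as a sum, since how reads that fit several copies were assigned is not given in the sources used here. Their transcripts were not compared here, and the sequences below lie upstream of them. RefSeq promoters (assembly GRCm38.p6, whereas the deposited values were made on mm9) were found for 6 of the 10 genes: Zscan4c, Zscan4d, Zscan4f, Zfp352, Pramel7 and Gm12794, which RefSeq names Pramel19. Arg2, Gm5662, Tdpoz3 and Zscan4e had no entry. Below are the 250 bases upstream of the start of 3 Zscan4 copies, 5′ to 3′ on the gene's strand. Zscan4c lies at chr7:11005495-11005744 (+), Zscan4d at chr7:11166149-11166398 (-) and Zscan4f at chr7:11397665-11397914 (+). Capitals mark the longest run that all 3 share.
Zscan4c: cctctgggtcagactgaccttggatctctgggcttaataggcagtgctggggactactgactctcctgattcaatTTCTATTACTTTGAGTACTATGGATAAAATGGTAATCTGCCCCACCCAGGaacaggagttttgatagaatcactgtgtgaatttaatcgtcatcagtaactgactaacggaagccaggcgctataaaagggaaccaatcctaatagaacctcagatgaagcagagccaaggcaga
Zscan4d: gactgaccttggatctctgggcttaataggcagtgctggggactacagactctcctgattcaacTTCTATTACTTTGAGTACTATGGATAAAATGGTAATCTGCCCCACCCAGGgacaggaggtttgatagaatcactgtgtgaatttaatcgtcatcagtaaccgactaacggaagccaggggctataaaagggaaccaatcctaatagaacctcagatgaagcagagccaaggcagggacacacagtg
Zscan4f: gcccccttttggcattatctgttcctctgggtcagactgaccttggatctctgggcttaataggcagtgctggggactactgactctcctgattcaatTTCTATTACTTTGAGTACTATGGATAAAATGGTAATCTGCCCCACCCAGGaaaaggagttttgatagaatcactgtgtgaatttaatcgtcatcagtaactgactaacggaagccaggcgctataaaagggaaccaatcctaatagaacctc
The run is 50 bases long and stands in 3 of 32851 promoters of the table, those of these copies. Zscan4c and Zscan4f had 1 mismatch in 227 aligned bases (99.6% identity), and Zscan4d had 7 mismatches in 239 bases with Zscan4c (97.1%) and 7 in 216 bases with Zscan4f (96.8%).

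Zfp352, the gene with the highest ratio between EloA null and wild type described further on, has a different upstream sequence (chr4:90218570-90218819, + strand), where capitals mark a repeated 10-base word.
Zfp352: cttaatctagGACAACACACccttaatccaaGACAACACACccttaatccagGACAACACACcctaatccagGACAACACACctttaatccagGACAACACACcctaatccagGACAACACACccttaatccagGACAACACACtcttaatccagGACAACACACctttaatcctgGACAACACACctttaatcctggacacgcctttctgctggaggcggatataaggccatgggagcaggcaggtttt
The word GACAACACAC occurs 9 times there. It is found in 14 of 32851 promoters, and 1 promoter, that of Zfp352, has as many copies. The word was chosen as the most frequent 10-base word of the Zfp352 promoter, so the choice favoured that rank. A site described for Zscan4 proteins, TGCACAC, was searched for on both strands over the same 250 bases. It was present in 3.67% of all promoters and was not found in the windows of the 6 genes.

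Levels are RPKM, a count of reads divided by exon length and by the depth of the library. Depth, recovered from the value that 1 read gives and stated in units of 1000000 reads, was 11.1 to 18.2 in CJ7 mESCs, 24.3 to 46.3 in CCE mESCs, 28.7 to 39.8 in CJ7 EBs and 23.6 to 30.8 in CCE EBs. The summed stem cell markers lay between 1725 and 2434 RPKM in mESC libraries and between 39.0 and 921 RPKM in EB libraries. The summed day 5 markers lay between 0.714 and 6.55 RPKM in mESCs and between 54.0 and 185 RPKM in EBs. Fibroblast markers were present in every mESC library, at a sum of 135 to 990 RPKM. On the log2 scale, Eed RNA fell by 2.30 in Eed null mESCs and fell by 1.68 in Eed null EBs, and Tceb3 RNA fell by 0.68 in EloA null mESCs (limma adjusted p below 0.05 in each). Changes are log2 differences of (RPKM + 0.5) ± the standard error of limma's moderated test, which understates the ratio of low genes. A gene was tested where 2 or more libraries of the fit had 0.25 RPKM, and it was called, and is said to have risen or fallen, at an adjusted p below 0.05 over all genes tested.

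Across mESC groups the summed level of the 4 Zscan4 copies followed the order Eed null, EloA null, CCE wild type, K754R, CJ7 wild type and K754M. The Eed null libraries held 38.7 and 38.2 RPKM, and the EloA null libraries 46.8, 13.3 and 25.6 RPKM. The CCE wild type held 8.38, 3.02 and 5.83 RPKM. The Eed null values lay inside the range of the EloA null ones, so these neighbours in the order overlapped, and the lowest EloA null library lay above the highest CCE wild type library. Below them were K754R, at 0.623 and 1.64 RPKM, CJ7 wild type, at 0.542 and 0.852 RPKM, and K754M, at 0.146 and 1.22 RPKM. The last 3 groups overlapped each other, and all of their libraries lay below those of the CCE wild type.

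**Figure D1:**
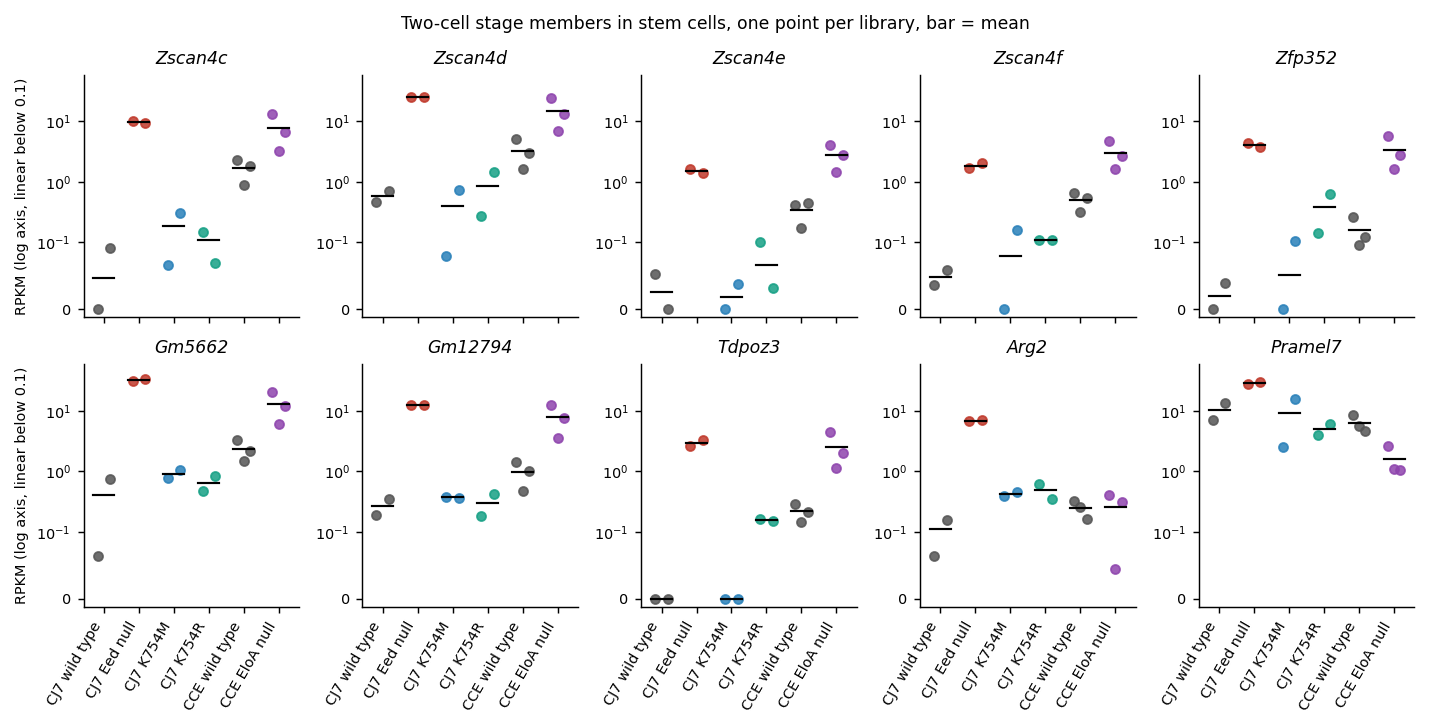
Level of each of the 10 genes in mESCs (y axis, RPKM on a log axis that is linear below 0.1) by line and genotype (x axis), with 1 point per library and a bar at the group mean. Eed null and EloA null libraries stand high for 8 genes, Arg2 is high in Eed null libraries (6.75 and 7.22 RPKM), and Pramel7 is low in EloA null libraries (1.04 to 2.63 RPKM).

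In CCE mESCs without Elongin A, Gm12794, Zscan4e and Zscan4f rose and Pramel7 fell. They are 3 higher and 1 lower of the 8 genes that the wild type libraries alone carried past the filter on low values. The other two, Zfp352 and Tdpoz3, passed that filter only with the EloA null libraries, so their calls are no support of their own. With them the count was 5 higher and 1 lower of 10, where 3.35% of all tested genes were called (2.12% higher and 1.23% lower). The median change of the 10 was 1.92 against -0.02 over all genes. The 10 genes were chosen with earlier results of these data known, so their counts and p-values in EloA null mESCs are a description. For 8 of the 10 genes every EloA null library lay above every wild type library and for 1 it lay below, where groups did not overlap for 10.9% of all genes on the higher and 13.1% on the lower side.

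Zfp352 measured 5.83, 1.60 and 2.80 RPKM in EloA null libraries 1, 2 and 3 and 0.260, 0.0961 and 0.122 RPKM in wild type libraries 1, 2 and 3. These values rest on 386, 95 and 130 reads against 23, 8 and 10. The groups did not overlap, and within each genotype library 1 was the highest and library 2 the lowest. The change was 2.43 ± 0.38 (n = 3 per group, limma adjusted p = 0.0241, and 0.0538 when genes of any level were tested). Within same-numbered libraries, the ratio of EloA null to wild type was 16.7 to 22.9, the highest range among the 10 genes.

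Gm12794, a PRAME-like gene, measured 12.5, 3.57 and 7.78 RPKM against 1.42, 0.473 and 1.01 RPKM (2.42 ± 0.45, n = 3 per group, limma adjusted p = 0.0394). Tdpoz3, which encodes a protein with TRAF-type and POZ domains, measured 4.43, 1.14 and 2.06 RPKM against 0.294, 0.146 and 0.212 RPKM (1.94 ± 0.38, n = 3 per group, limma adjusted p = 0.0481, and 0.0963 when genes of any level were tested). Both genes again had library 1 highest and library 2 lowest in each genotype, with no overlap between genotypes. For Zfp352 and for Tdpoz3, 1 wild type library reached the level needed for testing.

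Of the Zscan4 copies, Zscan4e rose by 1.89 ± 0.32 (4.11, 1.44 and 2.80 RPKM against 0.420, 0.171 and 0.441, n = 3 per group, limma adjusted p = 0.0309). Zscan4f rose by 1.74 ± 0.33 (4.77, 1.63 and 2.70 RPKM against 0.649, 0.312 and 0.533, n = 3 per group, limma adjusted p = 0.0436). RefSeq lists Zscan4e as a pseudogene. The more abundant copies did not pass the threshold: Zscan4d measured 24.7, 6.97 and 13.3 RPKM against 5.05, 1.66 and 3.01 (1.98 ± 0.50, limma adjusted p = 0.0995), and Zscan4c 13.3, 3.26 and 6.81 RPKM against 2.26, 0.884 and 1.85 (1.80 ± 0.48, limma adjusted p = 0.117). For both, the lowest EloA null library lay above the highest wild type library. The sum of the 4 copies changed by 2.14 ± 0.50 (28.6 ± 16.9 against 5.74 ± 2.68 RPKM, SD, n = 3 per group, limma adjusted p = 0.0807), from 880 to 3471 reads per EloA null library and 284 to 828 per wild type library.

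Gm5662 measured 21.1, 6.12 and 12.1 RPKM in EloA null and 3.39, 1.51 and 2.18 RPKM in wild type libraries (2.14 ± 0.44, n = 3 per group, limma adjusted p = 0.0569), so it did not overlap and did not pass either. Pramel7, a PRAME-like gene of the inner cell mass and of stem cells in inhibitor medium, went the other way. It measured 2.63, 1.11 and 1.04 RPKM against 8.74, 5.6 and 4.71 RPKM and fell by 1.75 ± 0.33 (n = 3 per group, limma adjusted p = 0.0428). Its ratio within same-numbered libraries was 0.199 to 0.301. Arg2, the mitochondrial arginase, measured 0.405, 0.0452 and 0.318 RPKM against 0.318, 0.257 and 0.164 RPKM, with overlapping groups (-0.01 ± 0.22, limma adjusted p = 0.989).

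**Figure D2:**
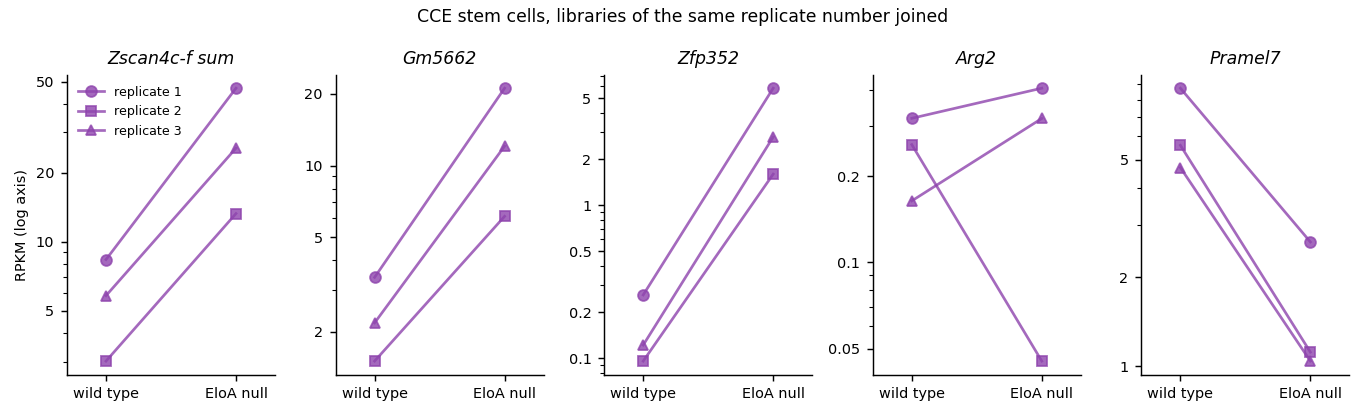
Level in CCE mESCs (y axes, RPKM on log axes, 1 per gene) of the summed Zscan4 copies, Gm5662, Zfp352, Arg2 and Pramel7 in wild type and EloA null libraries (x axis), where a line joins libraries with the same replicate number. For the Zscan4 sum the ratio along a line is 4.40 to 5.59, for Pramel7 every line goes down, and for Arg2 the lines cross.

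Same-numbered CCE mESC libraries deviated together over all genes (r = 0.216 to 0.512), so the fit was repeated with the replicate number as a block. Only number 1 clearly paired, since EloA null library 2 correlated as much with wild type library 3 (r = 0.217) as with wild type library 2 (r = 0.216). The calls with the block thus rest on a pairing that is not settled for numbers 2 and 3. With the block, 9 of 10 genes were called, 8 higher (Zfp352 and Tdpoz3 among them) and 1 lower, where 12.4% of all genes were called (6.67% higher and 5.72% lower). Zscan4c (limma adjusted p = 0.00845), Zscan4d (0.00255), Gm5662 (0.0042) and the Zscan4 sum (0.00254) then passed, with the changes above, and Arg2 was the gene that did not. Leaving out each number in turn with the block left 8 or 9 genes called. Without the block the count was less stable. It was 0 without EloA null library 3, wild type library 2 or wild type library 3, 1 without wild type library 1, 3 without EloA null library 1, 6 without EloA null library 2, and 0 when genes of any level were tested.

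Depth also differed between the CCE genotypes, and feeder markers tended to be higher in EloA null libraries, with overlapping sums. Wild type libraries held 42.8 to 46.3, and EloA null libraries 24.3 to 34.6, units of 1000000 reads. The summed fibroblast markers were 231 to 546 RPKM in EloA null against 135 to 389 RPKM in wild type. None of those 12 markers was called without the block (median change 0.80), and 7 were called higher with it. Stem cell markers summed to 2157 to 2274 RPKM against 2325 to 2434 RPKM, and of those 8 markers 1 was called lower without the block and 3 with it. The part of these differences in the results on the 10 genes was not tested.

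Other genes of the 2-cell stage were read from a list that holds 44 further entries of the tables. In EloA null mESCs 5 of its 26 tested genes were called higher, where 2.12% of all genes were, and none lower (median change 1.10). Gm2016 rose by 2.10, Tmem92 by 2.00, Gm2056 by 1.84 and Gm8994 by 1.60. Zscan4b, at 1.5, passed the filter only with the EloA null libraries (0.321, 0.0262 and 0.12 RPKM in wild type), so its call is no support of its own. With the replicate block 16 were called higher, where 6.67% of all genes were, and 1 lower, where 5.72% were. How many of the 16 passed the filter only with the EloA null libraries was not counted. The list was also chosen with earlier results of these data known, so its counts are a description. Of 36 regulators of the 2-cell-like state, 3 rose, namely Lin28a by 0.58, Zmym2 by 0.46 and Hdac2 by 0.22, and with the block 5 were called higher and 1 lower. Among 10 tested genes of telomere recombination and meiosis, Rad50, a DNA repair protein, fell by 0.37 and no other was called, and with the block the count was again 1 lower.

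In Eed null CJ7 mESCs, the comparison in view when the genes were picked, 9 of the 10 were called higher, where 8.59% of all genes were called (5.32% higher). Nothing is read from that count. Zscan4c, Zscan4e, Zscan4f, Zfp352 and Tdpoz3 passed the filter on low values only with the Eed null libraries. The values are given in full because of their depth. Zscan4d had 25.0 and 25.4 RPKM in Eed null libraries (695 and 683 reads) and 0.454 and 0.702 RPKM in wild type (10 and 19 reads). Zscan4c had 10.4 and 9.43 RPKM against 0 and 0.0917 RPKM, Zscan4e 1.64 and 1.40 against 0.0519 and 0, and Zscan4f 1.67 and 2.02 against 0.0363 and 0.0590. Each wild type value of these 3 copies rests on 0 to 3 reads, and the Eed null libraries differed little from each other.

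Gm5662 had 31.7 and 33.6 RPKM in Eed null libraries against 0.0636 and 0.750 RPKM in wild type, and Gm12794 had 12.7 and 12.6 against 0.187 and 0.355. Zfp352 had 4.33 and 3.72 RPKM against 0 and 0.0386 RPKM. Tdpoz3 had 2.61 and 3.30 RPKM and no read in either wild type library, and against a floor of 3 reads over the wild type group it was at least 26.7-fold higher. Arg2 had 6.75 and 7.22 RPKM against 0.0636 and 0.155 RPKM, which rest on 1 and 3 reads. Pramel7, with 28.1 and 30.5 RPKM against 7.25 and 13.8 RPKM, was the gene not called. The Zscan4 sum rested on 1141 and 1091 reads in Eed null and 12 and 24 in wild type. Summed fibroblast markers were 319 to 455 RPKM against 274 to 346 RPKM, and their part was not tested.

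The 2 lysine substitutions of Elongin A were set against the same CJ7 wild type libraries as Eed null. In K754M mESCs 0 of 10 genes were called, where 0% of all genes were (0 of 21012 with limma, and 2103 at an unadjusted p below 0.05). At an unadjusted p below 0.05 was 1 of the 10, as were 10% of all genes. That gene was Arg2, at 0.391 and 0.460 RPKM against 0.0636 and 0.155 RPKM in wild type (0.61 ± 0.25, n = 2 per group, limma adjusted p = 0.492). In K754R mESCs 0 of 10 genes were called, where 0.162% of all genes were. At an unadjusted p below 0.05 was 1 of the 10, where 14.3% of all genes were (3000 of 21012). That gene was Arg2, with 0.623 and 0.347 RPKM (0.68 ± 0.25, n = 2 per group, limma adjusted p = 0.291). Both substitutions rest on the same wild type libraries, with 1 and 3 Arg2 reads, so the changes are not independent of each other. Zscan4c, Zscan4e, Zscan4f, Zfp352 and Tdpoz3 passed the filter on low values only with the Eed null libraries of the same fit. With only a substitution and wild type in the fit, 5 of the 10 genes were tested and 0 were called, in K754M and in K754R.

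Zfp352 was at 0.139 and 0.633 RPKM in K754R (3 and 22 reads), against 0 and 0.0386 RPKM in wild type and 0 and 0.103 RPKM in K754M. Both K754R libraries lay above the other two groups, the lower one by a narrow margin (0.71 ± 0.32 against wild type, n = 2 per group, limma adjusted p = 0.378). Tdpoz3 had 2 and 3 reads in K754R and none in K754M or wild type. The Zscan4 sum changed by -0.17 ± 0.51 in K754M (4 and 40 reads, limma adjusted p = 0.971) and by 0.39 ± 0.51 in K754R (15 and 61 reads, limma adjusted p = 0.775). Pramel7 varied most between libraries of 1 group in K754M, at 2.53 and 15.9 RPKM. Of the other 2-cell genes, 0 of 30 tested were called with limma in either substitution. Replicates differed by a median of 24.5 times the sampling variance in K754M mESCs and 28.7 times in K754R mESCs. These medians cover the 13306 and 13277 genes with enough reads in both libraries, which leaves out genes with few reads.

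**Figure D3:**
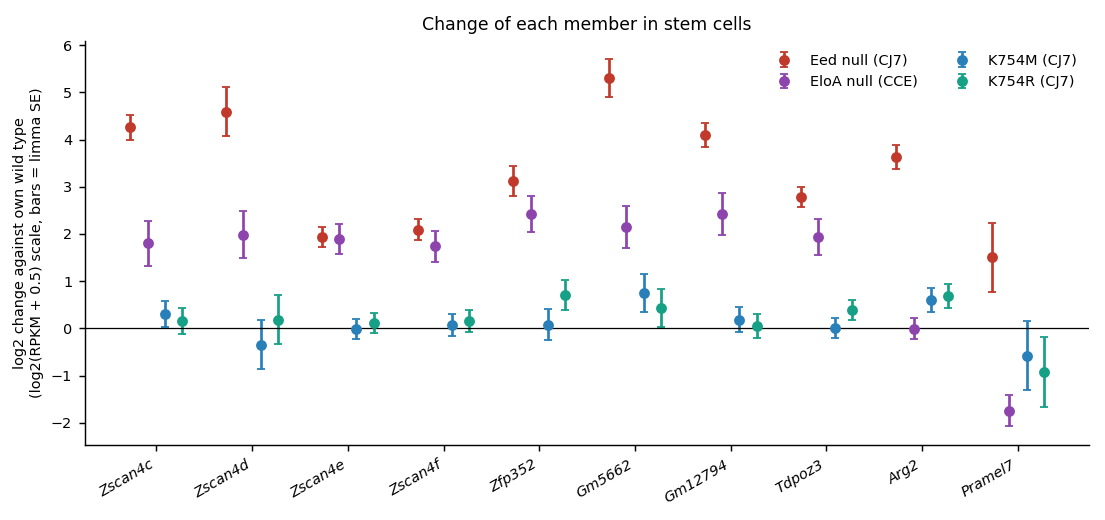
Change of each of the 10 genes against the wild type of its own line in mESCs (y axis, difference of log2(RPKM + 0.5), bars are limma standard errors). Eed null (picked on these values) and EloA null points lie above 1.7 for the Zscan4 copies, Zfp352, Gm5662, Gm12794 and Tdpoz3, K754M and K754R points lie within 1 of 0, and Pramel7 is at -1.75 in EloA null.

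The shares of the Zscan4 copies were read in the 8 mESC libraries with 100 or more reads over the 4 copies. Values below 30 reads were whole numbers of reads to within 0.05. The unit of reads was itself drawn from steps in the values, so this cannot tell whether reads were split in fractions between copies. How a read that fits several copies was handled is not given in the sources used here. Zscan4d had the largest share throughout, at 60.9 and 62.6% in Eed null, 48.6 to 49.1% in EloA null and 47.8 to 56.4% in CCE wild type libraries. Zscan4c followed with 28.1 and 30.5%, 27.7 to 31.9% and 30.4 to 35.5%. Zscan4f held 5.08 and 6.23% in Eed null, 11.9 to 14.3% in EloA null and 9.06 to 12.0% in CCE wild type.

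Zscan4e held 3.02 and 3.51% in Eed null libraries, 8.33 ± 1.01% in EloA null and 4.94 ± 1.06% in CCE wild type (SD, n = 3 per group). Its ranges in the last 2 groups did not overlap, at 7.17 to 8.96% and 4.11 to 6.13%. A two-sided exact permutation test of the means over 3 against 3 libraries gave p = 0.1, the smallest this design allows, and an adjusted p = 0.267 over the 4 copies. The other copies gave exact permutation p = 0.2 (Zscan4c), 0.4 (Zscan4d) and 0.2 (Zscan4f). The 2 CJ7 libraries lay below all 6 CCE libraries in the Zscan4e and Zscan4f shares and above them in the Zscan4d share, where line and genotype cannot be told apart.

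**Figure D4:**
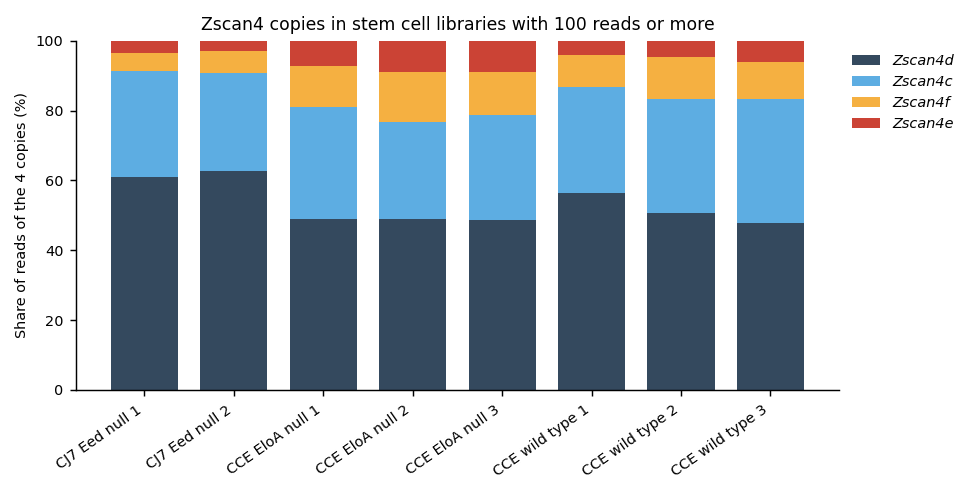
Share of the reads of the 4 Zscan4 copies (y axis, percent) held by each copy in the 8 mESC libraries with at least 100 such reads (x axis). Zscan4d takes 60.9 and 62.6% in the CJ7 Eed null libraries and 47.8 to 56.4% in the CCE libraries, and Zscan4e is widest in the EloA null libraries.

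The 2 wild type lines differed in their starting levels. The Zscan4 sum was 0.697 ± 0.219 RPKM in CJ7 (SD, n = 2) and 5.74 ± 2.68 RPKM in CCE (SD, n = 3), a change of -2.30 ± 0.56 (limma adjusted p = 0.0142). Zscan4c was lower in CJ7 by 1.93 ± 0.46 (limma adjusted p = 0.0114) and Gm5662 by 1.71 ± 0.47 (limma adjusted p = 0.0244). These were 0 higher and 2 lower of 10 genes, where 22.7% of all genes were called (10.2% lower), and 9 of 10 genes had non-overlapping groups with CJ7 lower, where 23.1% of all genes did. Pramel7 was the exception, at 7.25 and 13.8 RPKM in CJ7 and 4.71 to 8.74 RPKM in CCE. The count was 0 without CJ7 wild type library 1 and 1 without CCE wild type library 1 or 3. Line and depth cannot be told apart here.

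Over the 14 mESC libraries, the genes outside the 10 whose log2 level was most like the Zscan4 sum were Gm4971, Gm16368, Gm8300, Gm11543 (Pearson r = 0.97 each) and Gm8994 (r = 0.96). Among the 10, r was 0.91 to 0.99 for the 8 genes that include the 4 copies, 0.51 for Arg2 and 0.04 for Pramel7. The 4 copies are themselves part of the sum. For Zfp352, Tdpoz3, Gm12794 and Gm5662, which are not, r was 0.91 to 0.96. These points share lines and genotypes, so the values describe the libraries and carry no test.

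In day 5 EBs all 10 genes were low, at 1.76 RPKM or less in every library. Each stage was fitted apart, and no test was made between mESCs and EBs. The Zscan4 sum was 1.14 and 1.19 RPKM in Eed null EBs, 0.482 and 0.595 in K754M, 0.270 and 0.327 in CJ7 wild type and 0.196 and 0.0758 in K754R. In CCE EBs it was 0.132 and 0.383 RPKM in pair B, 0.0130 and 0.403 in wild type and 0.05 and 0.199 in pair A. The 4 CJ7 groups did not overlap each other in this order, and the 3 CCE groups overlapped. The CCE values rest on 1 to 22 reads per library.

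The Zscan4 sum rose in Eed null EBs by 1.06 ± 0.17 (99 and 91 reads against 19 and 23, n = 2 per group, limma adjusted p = 0.00384). Of the 10 genes, 5 passed the filter on low values in CJ7 EBs. Zscan4c, Gm5662 and Gm12794 passed it only through the Eed null libraries, and Zscan4d through these and 1 K754M library, so their calls are no support of their own. They were called higher, as were 30.4% of all genes in either direction (19.2% higher). Gm5662 had 1.02 and 0.797 RPKM against 0.0559 and 0.121 RPKM (1.26 ± 0.18, limma adjusted p = 0.00213), and Gm12794 had 0.362 and 0.356 RPKM against 0.0219 and 0.0215 RPKM (0.72 ± 0.14, limma adjusted p = 0.0077).

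Zscan4c had 0.406 and 0.465 RPKM in Eed null EBs and 0.158 and 0.0130 in wild type (0.69 ± 0.19, limma adjusted p = 0.0303). Zscan4d had 0.478 and 0.418 RPKM against 0.112 and 0.141 (0.60 ± 0.15, limma adjusted p = 0.0235). Arg2, the most abundant of the 10 in EBs, had 1.5 and 1.45 RPKM against 0.983 and 0.439, with no overlap (0.74 ± 0.24, limma adjusted p = 0.0519). Among the 5 genes that were not tested, Pramel7 had 13 and 4 reads in Eed null and none in wild type EBs, at least 4.66-fold above a floor of 3 reads over the wild type group. Zfp352 and Tdpoz3 had at most 8 reads in any EB library. The number called fell to 0 without either Eed null library, where 2 of the 10 remained tested, and to 2 without wild type library 2 or with only the Eed null and wild type libraries in the fit.

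Stem cell markers summed to 854 to 921 RPKM in Eed null EBs and 235 to 296 RPKM in wild type, with 7 of 8 called higher, while 6 of 8 day 5 markers were called lower. Of the regulators of the 2-cell-like state, 13 of 36 rose and 3 fell in the same EBs. Over all genes, 19.2% were called higher and 11.2% lower there. Zfp42 rose by 4.79, Dppa3 by 4.44, Dppa4 by 3.46 and Dppa2 by 2.84. Zfp42, also a stem cell marker, encodes Rex1, and Dppa2 and Dppa4 are chromatin proteins known to act upstream of Dux. Their part, and that of the stem cell markers, in the level of the 10 genes was not tested. Of the other 2-cell genes, 5 of 8 tested were called higher, where 19.2% of all genes were. Among them 2410141K09Rik rose by 2.31 and was above 0.25 RPKM in wild type. Gm8994 (1.26), Gm2056 (0.85), Gm13119 (0.76) and the remaining called gene, Obox6 (0.63), lay below 0.25 RPKM in both wild type libraries, so their calls are no support of their own.

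**Figure D5:**
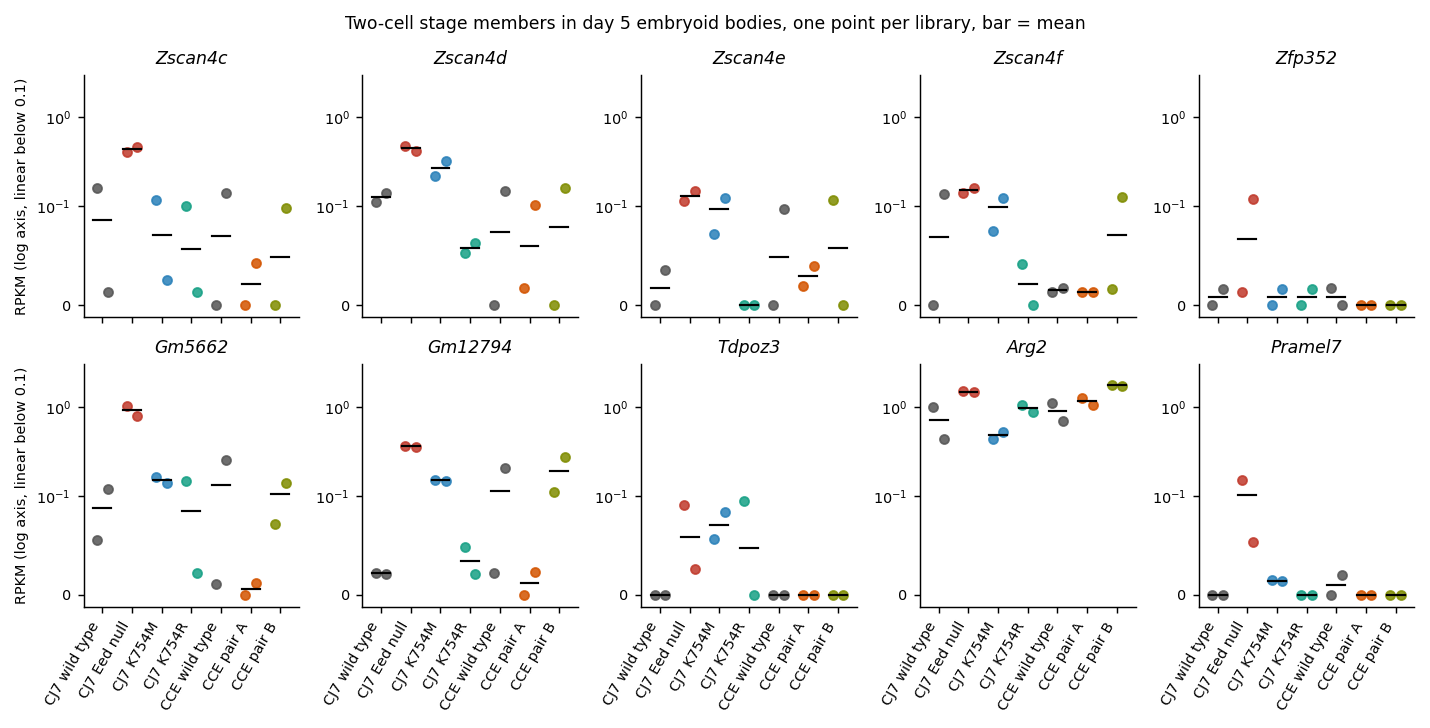
Level of each of the 10 genes in day 5 EBs (y axis, RPKM on a log axis that is linear below 0.1) by line and group (x axis), with 1 point per library and a bar at the group mean. Arg2 is the highest in most groups, at up to 1.76 RPKM, and Gm5662 and Gm12794 are highest in the Eed null libraries.

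In K754M EBs 0 of 5 tested genes were called, where 0.565% of all genes were. The Zscan4 sum was above wild type in both libraries (33 and 40 reads against 19 and 23, 0.38 ± 0.17, n = 2 per group, limma adjusted p = 0.365). Gm12794 had 0.150 and 0.148 RPKM, 7 reads each, against 1 read in each wild type library (0.32 ± 0.14, limma adjusted p = 0.342). In K754R EBs 0 of 5 were called, where 9.68% of all genes were. The Zscan4 sum lay below wild type in both libraries (13 and 5 reads, -0.33 ± 0.17, n = 2 per group, limma adjusted p = 0.266). The stem cell markers were at 39.0 to 45.6 RPKM in these EBs, 4 of 8 of them called lower.

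In CCE EBs Arg2 was the 1 gene of the 10 that passed the filter. It had 1.26 and 1.03 RPKM in pair A and 1.12 and 0.684 RPKM in wild type, with overlapping groups (0.25 ± 0.22, n = 2 per group, limma adjusted p = 0.88), and 0% of all genes were called (0 of 17735 with limma, 1166 at an unadjusted p below 0.05). In pair B it had 1.76 and 1.72 RPKM, above both wild type libraries (0.70 ± 0.22, n = 2 per group, limma adjusted p = 0.22), where 0.135% of all genes were called. Tdpoz3 had no read in any of the 6 CCE EB libraries, and Zfp352 and Pramel7 had 1 read each, both in wild type. Between the wild type EBs of the lines, 0 of 5 tested genes were called, where 6.82% of all genes were, and the Zscan4 sum differed by 0.23 ± 0.26 (limma adjusted p = 0.719).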

How the data were processed

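The authors deposited RPKM values in a separate table for each stage, with 37583 entries each and 1 value per library. Per the submitters' processing notes, CASAVA 1.7, STAR and mm9 were used, with no role or order given. The counting program, annotation, strand use and handling of reads that fit several copies were not given in the sources used here. RPKM carries the step of 1 read. Depth and reads per gene were recovered from that step and exon lengths of GENCODE M21 (32860 entries matched), and intervals or floors cover counting error only. Levels of log2(RPKM + 0.5) were tested with limma-trend (limma 3.58.1, R 4.3.3; Python 3.11.15, pandas 2.3.3, scipy 1.17.1, matplotlib 3.10.9), with 1 fit per line and stage (for the comparison of lines, 1 per stage), no covariate, genes with 0.25 RPKM in 2 or more libraries, and Benjamini-Hochberg adjustment over all genes tested. The method was tested on simulated data. For the Zscan4 sum, the RPKM of the 4 copies replaced their single values.

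The members and lists were chosen with earlier results of these data known. All 10 genes are named; of a list, at most 4 called genes with the largest change (Zscan4b, Obox6 and the Eed and Tceb3 label checks come on top); and the 5 genes most like the Zscan4 sum. Over genes with enough reads in both libraries, replicates differed by a median of 1.98 (Eed null mESCs) to 30.4 times the sampling variance. Repeated reading of 1 library would give less. Whether replicates were separate cultures is not shown by this. Same-numbered CCE mESC libraries correlated in their deviations from the group means (r = 0.216 to 0.512 over 3 pairs), a pairing drawn from the data and not from the labels. EloA null library 2 and wild type library 3, of different numbers, correlated as well (r = 0.217), so the pairing of numbers 2 and 3 is not settled. Other pseudocounts, no filter, median ratio scaling, fits of 2 groups, the replicate block and leaving out libraries were tried.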

Additional observations from a re-analysis of the deposited data

How the results depend on the processing

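Of 546 values recomputed under an alternative, 445 kept direction and side of the threshold (for a count, stayed within 1.5 times, as 6 and 9 do), 52 no longer passed, 27 newly passed, 17 counts moved further and 5 changed sign. These values include those of Eed null mESCs, the comparison in view when the genes were picked, so the tally is no support for the calls. In EloA null mESCs the number of genes called was 6, 0 with no filter, 0 to 6 when 1 library was left out, and 9 with the replicate block. Under that block the Zscan4 sum passed at a change of 2.14 (limma adjusted p = 0.00254), and without pair 1, 2 or 3 at 2.01, 2.23 and 2.19. Eed null mESC calls ranged from 4 to 9 with 1 library left out, and Eed null EB calls from 0 to 4, with 2 in a fit of only the 2 groups. For the lines in mESCs, the count of 2 became 5 with a pseudocount of 0.1, 4 with only the 2 groups and 0 to 3 with 1 library left out. The Zscan4 sum changed sign, never near the threshold, in K754M mESCs (-0.88 to 0.53, 0.015 without wild type 2), K754R mESCs (-0.081 to 0.85), pair A (-0.54 to 0.038) and pair B (-0.27 to 0.37) when 1 library was left out; the cause was not tested. The sum of all 6 Zscan4 copies, chosen after seeing the data, changed no call. Over all genes, the block moved calls from 619 to 2288 in EloA null mESCs, 34 to 2 in K754R mESCs, 109 to 230 in K754M EBs, 1868 to 2950 in K754R EBs and 24 to 703 in pair B, and it changed no count of the 10 genes outside EloA null mESCs and Eed null EBs, where it also called Arg2. Only the 2 groups gave 4516 for 1805 (Eed null mESCs), 3 for 24 (pair B) and 0 for 34 (K754R mESCs), 109 (K754M EBs) and 1366 (lines, EBs). No filter gave 14 for 34, 58 for 109, 1199 for 1868 and 1 for 24. With 1 library left out, calls were 179 to 417 (Eed null mESCs), 158 to 640 (EloA null mESCs), 0 (K754R mESCs), 0 to 17 (K754M EBs), 177 to 1249 (K754R EBs), 0 to 1 (pair B), 567 to 768 (lines, EBs) and 2867 to 4150 (lines, mESCs). Outside CCE mESCs there are only 2 pairs, so numbers were not taken to pair libraries. In CJ7 wild type mESCs, at depths of 11.1 and 13.6 in units of 1000000 reads, most of the 10 genes had 0 to 3 reads. Eed null mESC libraries had depths of 13.9 and 13.5, with 348 and 307 Zscan4c reads. With either of these libraries left out, 7 of the 10 genes remained tested, so part of the drop in calls comes from the filter.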

Other observations

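The tables hold 2 further Zscan4 entries, Zscan4b and Zscan4-ps2, a pseudogene, whose values follow. Zscan4-ps2 had 5.57 and 5.52 RPKM in Eed null and 0 and 0.162 RPKM in CJ7 wild type mESCs. In CCE mESCs it had 6.50, 1.55 and 2.89 RPKM in EloA null and 1.01, 0.442 and 0.604 RPKM in wild type libraries. Zscan4b had 2.05, 0.848 and 1.25 RPKM in EloA null and 0.321, 0.0262 and 0.12 RPKM in wild type libraries, and 2.01 and 2.08 RPKM in Eed null mESCs against 0 and 0.0422 RPKM. Both had higher values in every EloA null library than in any wild type library. With them, the sum of all 6 copies was 33.6 RPKM in EloA null and 6.58 RPKM in CCE wild type mESCs (2.19 ± 0.50, n = 3 per group, limma adjusted p = 0.0775).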
